A study of Mus musculus with 18 samples.

Results

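The claudins Cldn3, Cldn4, Cldn5, Cldn6, Cldn7 and Cldn9 and the simple epithelial keratins Krt7, Krt8, Krt18 and Krt19 are 10 of the 54532 genes in an RNA sequencing table of mouse embryonic stem cells, taken by gene symbol: 6 claudins and 4 keratins. The cells are ES-E14TG2a, a line derived from the mouse blastocyst, in 3 versions called Ctrlv2, Arf-B and Arf-C, each sequenced at day 0 and at day 8 in 3 replicates, which gives 6 groups and 18 libraries. The series title names p19Arf, the protein made from an alternative reading frame of the Cdkn2a locus, and the pancreatic lineage. The stem cells were grown on gelatine in serum with leukaemia inhibitory factor. Every line was given activin A at 20 ng/mL together with Matrigel from day 0, and from day 4 to day 8 every line received retinoic acid (5 in the unit μM/ml, as the submitters wrote it) and FGF10 (10 ng/mL). Every library, the Arf-B and Arf-C ones included, has the genotype label wild type. The sources used here do not say by what method either Arf line was made or whether it is 1 clone. Nothing says that replicates were separate cultures, so p-values measure only the spread between these samples, which may be technical.

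Claudins are small membrane proteins that span the plasma membrane several times and meet those of the neighbouring cell in the tight junction, where the mix of claudins sets how easily ions and water pass between cells. Keratins are intermediate filament proteins that assemble as obligate partners of a type II and a type I chain. In single-layered epithelia and in the first epithelial cells of the embryo, the main partners are Krt8 (type II) with Krt18 (type I). Krt7 is a further type II chain of ducts and other simple epithelia, and Krt19 is a small type I chain of ducts and of progenitor cells. The pancreas arises from the gut tube, a simple epithelium in which both families are in use.

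The libraries held 10432590 to 33311220 reads on genes, with the smaller libraries at day 8. Values are FPKM, fragments per kilobase of gene scaled to a library size, so levels of different genes are compared per length. The library size behind the deposited values was 0.95 to 1.10 times the reads on genes, highest in the Arf lines at day 8. A count of 3 reads on 1 kilobase of gene was worth 0.093 to 0.282 FPKM, depending on the library. Tests used limma on log2(FPKM + 1) over 17200 genes (0.5 FPKM or more in 3 or more libraries), and a gene was called at a Benjamini-Hochberg adjusted p below 0.05. Of the 10 members 9 were tested. Cldn5 did not reach the filter. Markers of pluripotent cells, the identity the labels give for day 0, summed to 4344 to 5226 FPKM over 8 genes at day 0 in every line. Of 11 markers of definitive endoderm and foregut, 7 passed the filter, and the sum over all 11 was 1.10 to 2.26 FPKM at day 0 and 14.6 to 24.6 FPKM at day 8. In such bulk samples, fewer cells of a type and less RNA per cell cannot be told apart.

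Promoter sequence is shown for the most abundant claudins and for the neighbour of Cldn4 that differed most between the lines (Cldn3). It is also shown for the keratin partners Krt8 and Krt18. The choice was made because all tested members of each family rose between days, though by different amounts. The letters are the 250 bases before the gene start, 5′ to 3′ on the gene's strand, from RefSeq on GRCm38.p6, the assembly also called mm10. Capitals mark matches, on either strand, to any of 9 motifs searched. The positions are chr5:134946935-134947184 (minus strand) for Cldn4, chr5:134985964-134986213 (plus) for Cldn3, chr17:23679115-23679364 (plus) for Cldn6, chr15:102004343-102004592 (minus) for Krt8 and chr15:102027966-102028215 (plus) for Krt18.
Cldn4: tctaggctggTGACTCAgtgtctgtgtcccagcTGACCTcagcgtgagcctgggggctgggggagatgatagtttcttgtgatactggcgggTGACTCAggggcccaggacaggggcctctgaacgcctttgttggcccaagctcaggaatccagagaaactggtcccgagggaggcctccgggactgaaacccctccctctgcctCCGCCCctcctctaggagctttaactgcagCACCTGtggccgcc
Cldn3: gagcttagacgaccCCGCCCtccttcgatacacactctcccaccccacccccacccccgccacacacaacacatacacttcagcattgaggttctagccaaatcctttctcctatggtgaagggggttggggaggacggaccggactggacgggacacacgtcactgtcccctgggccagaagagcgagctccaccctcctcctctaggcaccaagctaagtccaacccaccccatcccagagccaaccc
Cldn6: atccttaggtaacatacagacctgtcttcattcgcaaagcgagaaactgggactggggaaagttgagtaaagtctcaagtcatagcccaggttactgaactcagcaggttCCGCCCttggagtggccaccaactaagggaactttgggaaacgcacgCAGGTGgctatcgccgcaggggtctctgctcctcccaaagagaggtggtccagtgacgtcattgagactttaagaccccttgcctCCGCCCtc
Krt8: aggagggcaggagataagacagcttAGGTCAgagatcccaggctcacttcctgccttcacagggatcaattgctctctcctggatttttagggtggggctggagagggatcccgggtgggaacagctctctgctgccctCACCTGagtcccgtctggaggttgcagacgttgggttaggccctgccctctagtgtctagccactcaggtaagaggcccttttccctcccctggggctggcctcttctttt
Krt18: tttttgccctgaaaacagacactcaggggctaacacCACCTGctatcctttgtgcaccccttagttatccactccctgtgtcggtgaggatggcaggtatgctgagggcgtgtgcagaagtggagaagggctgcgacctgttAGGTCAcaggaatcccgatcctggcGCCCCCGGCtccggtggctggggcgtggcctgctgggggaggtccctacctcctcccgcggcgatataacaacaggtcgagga

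RefSeq promoter entries matched 8 of the 10 members, with 9 windows because Cldn7 has a pair of starts, and motifs were counted over 250 bases before to 50 after each start. The E-box CACCTG bound by Snail and Zeb, repressors of epithelial genes, was in 7 of the 9 windows and in 20.2% of all 32851 promoters of the table. GGGCGG, the GC box of Sp and Klf factors, was in 6 windows (35.7% of all promoters), and AGGTCA, the single repeat to which retinoic acid receptors bind, was also in 6 (16.3%). AP-2 letters GCCNNNGGC were in 3 windows (16.6%), Tead letters GGAATG in 2 (14.7%) and Ets letters CCGGAAG in 2 (8.86%). TGANTCA of AP-1 was in 1 window (7.81%), that of Cldn4, which holds it at -240 and at -158 from the start. AACNGGTT of the grainyhead factors was in 1 (2.09%), that of Cldn5, and TATAAA in 1 (13.6%), that of Krt8 at -1. Between the keratin partners, both windows hold CACCTG and AGGTCA, while the AP-2 letters are in that of Krt18 alone. A match is a description of these letters and not a binding site. RefSeq and the deposited table place the starts of Krt7, Krt8, Krt18 and Cldn6 at different bases. For Krt7 the window was 15:101412153-101412452, and the deposited gene starts at 101411043. Of the Cldn7 pair, the lower start matches the deposited one and the upper does not.

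All 9 tested members rose from day 0 to day 8 in all 3 lines. At both days the Arf-B and Arf-C lines had more summed RNA of the 6 claudins and less of the 4 keratins than Ctrlv2. Krt18 reached the highest level of any member, 238 ± 24.1 FPKM (SD, n = 3) in Ctrlv2 at day 8, and in the Arf lines at day 8 the highest was Cldn4, at 203 ± 13.1 FPKM in Arf-B and 208 ± 18.2 FPKM in Arf-C. No member was called between Arf-B and Arf-C.

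**Figure D1:**
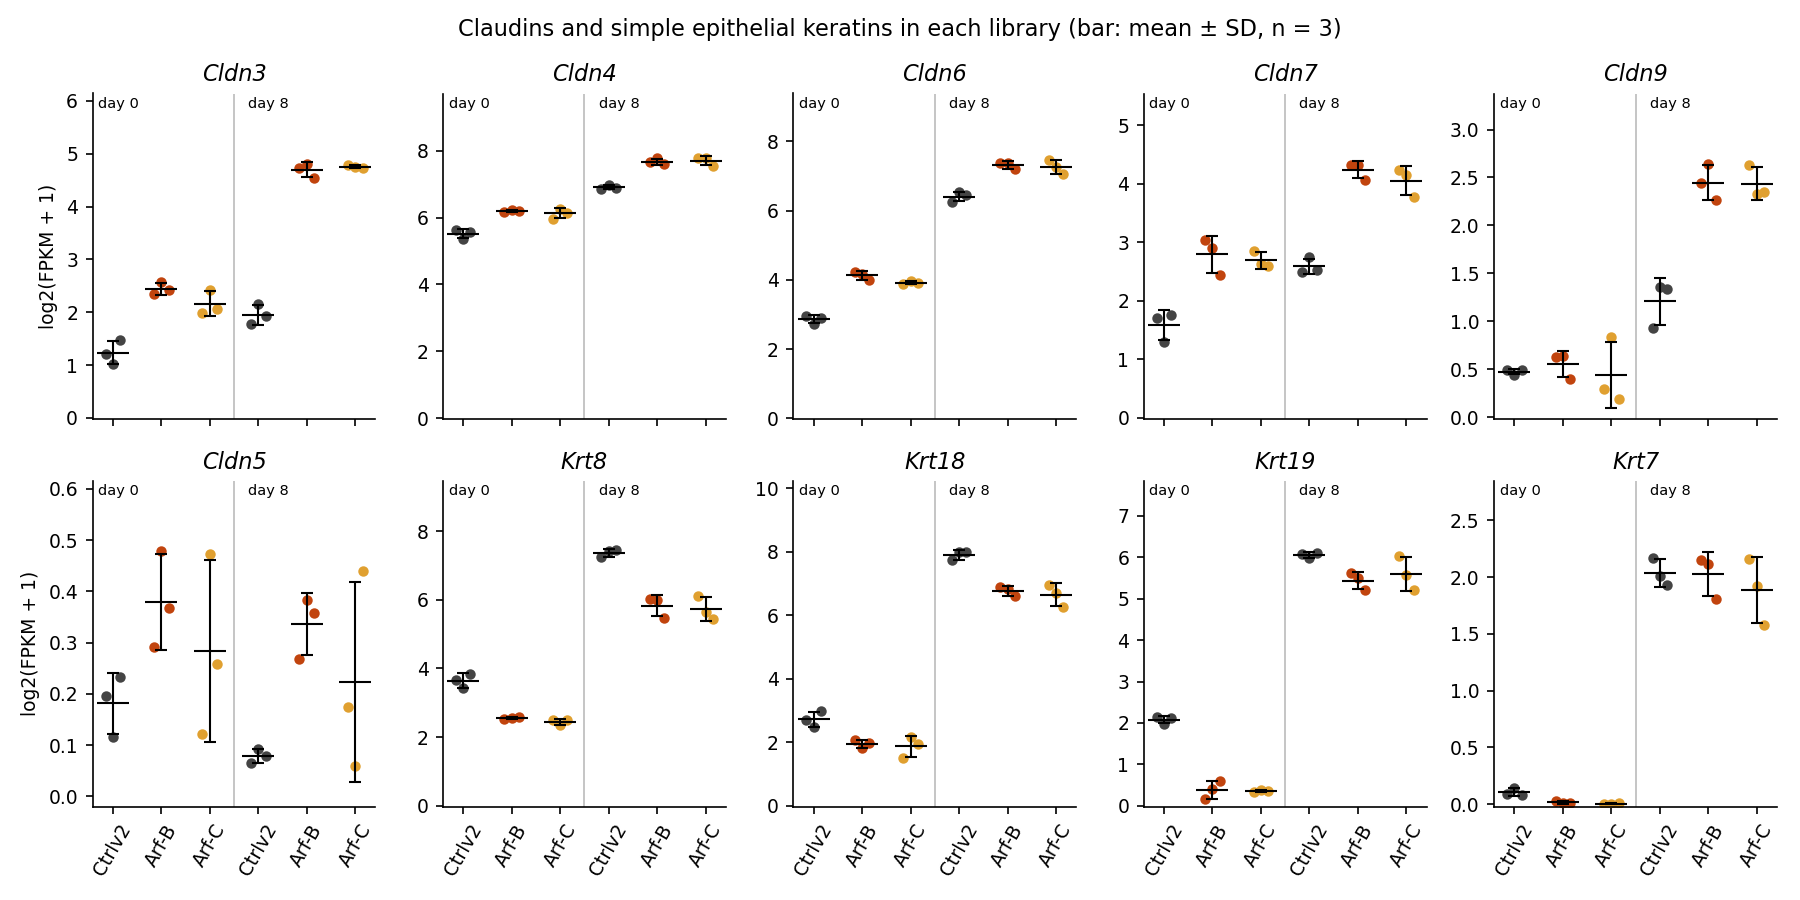
Levels of the 10 members as log2(FPKM + 1), 1 panel per gene with its own axis, with 1 point per library and black bars for the mean ± SD of each line at day 0 (left) and day 8 (right). The means of Krt8, Krt18 and Krt19 are highest in Ctrlv2 at day 8, those of Cldn3, Cldn4, Cldn6, Cldn7 and Cldn9 are highest in the Arf lines at day 8, and Cldn5 does not exceed 0.393 FPKM in any library.

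Cldn4, a claudin of simple epithelia that is also a receptor of a bacterial enterotoxin, was the most abundant member in every day 0 group. In Ctrlv2 the 3 libraries held 48.8, 40.0 and 46.5 FPKM at day 0 and 115, 125 and 118 at day 8. In Arf-B they held 70.3, 73.8 and 71.9 at day 0 and 199, 217 and 192 at day 8, and in Arf-C 61.5, 76.0 and 69.6 and 219.6, 217 and 187. The groups rank Ctrlv2 day 0, Arf-C day 0, Arf-B day 0, Ctrlv2 day 8, Arf-B day 8, Arf-C day 8, and at each day the libraries of both Arf lines overlap each other and lie above all those of Ctrlv2. The rise to day 8 was of similar size in each line, with log2 fold changes of 1.39 (SE 0.09) in Ctrlv2, 1.48 for Arf-B and 1.58 for Arf-C.

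Cldn6, a claudin of embryonic epithelia that is nearly silent in adult tissue, was the claudin that rose most on the log2(FPKM + 1) scale. It went from 6.74, 5.60 and 6.48 FPKM to 75.2, 91.0 and 85.5 FPKM in Ctrlv2. In Arf-B the values were 17.7, 16.8 and 15.0 at day 0 and 166, 166 and 146 at day 8, and in Arf-C 13.8, 14.6 and 14.0 and 173, 152 and 133. Neighbouring groups in this order of levels do not overlap except the Arf lines at day 8. The log2 rise was 3.54 (SE 0.10, adjusted p = 4.35e-14) in Ctrlv2, 3.20 for Arf-B and 3.34 for Arf-C. As ratios of mean FPKM, with no pseudocount, the rises were 13.4-fold, 9.65-fold and 10.8-fold, and on that scale Cldn9 rose more in Arf-C (11.6-fold).

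Cldn3, which lies beside Cldn4 on chromosome 5 and seals epithelial junctions, was low in Ctrlv2 on both days. Its values there were 1.30, 1.04 and 1.77 FPKM at day 0 and 2.42, 3.44 and 2.82 FPKM at day 8. Arf-B went from 4.07, 4.92 and 4.36 to 25.7, 27.1 and 22.2, and Arf-C from 2.98, 4.39 and 3.15 to 26.5, 26.0 and 25.6. The day 8 libraries of the Arf lines stand far above all others, while Ctrlv2 at day 8 overlaps Arf-C at day 0. The rise was 0.72 (SE 0.13, adjusted p = 0.000129) on the log2 scale in Ctrlv2, against 2.25 and 2.60 in Arf-B and Arf-C.

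Cldn7, a claudin of epithelial side membranes that also binds the adhesion protein Epcam, had nearly the order of groups seen for Cldn3. It was at 2.28, 1.44 and 2.39 FPKM in Ctrlv2 at day 0 and at 4.66, 5.70 and 4.74 at day 8. In Arf-B the values were 7.21, 6.50 and 4.41 and then 19.0, 19.1 and 15.8, and in Arf-C 6.24, 5.18 and 5.05 and then 17.8, 16.8 and 12.6. Ctrlv2 at day 8 overlapped the day 0 libraries of Arf-C, and the day 8 libraries of the Arf lines lay above all others. Log2 rises were 1.00 in Ctrlv2 (SE 0.16), 1.45 in Arf-B and 1.36 in Arf-C.

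Cldn9, best known from the inner ear, was scarce. Its day 0 libraries spanned 0.138 to 0.784 FPKM, and the 3 lines overlapped. At day 8 Ctrlv2 held 0.899, 1.57 and 1.53 FPKM, Arf-B 4.43, 5.22 and 3.80 and Arf-C 5.20, 4.01 and 4.10. All day 8 libraries of the Arf lines were thus above all of Ctrlv2, and the log2 rise was 0.73 (SE 0.16, adjusted p = 0.000723) in Ctrlv2, 1.89 for Arf-B and 2.00 for Arf-C. With a pseudocount of 0.1 these rises were 1.51, 3.02 and 3.46, since adding 1 to so low a level shrinks a change.

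Cldn5, the main claudin of blood vessel walls, was near the limit of these libraries. It had 1 to 16 reads per library and at most 0.393 FPKM. Summed over the 3 libraries of a group, it had 17 reads at day 0 and 3 at day 8 in Ctrlv2. The sums were 35 and 24 in Arf-B, and in Arf-C they were 26 and 12. Per library size, Arf-B exceeded Ctrlv2 by a ratio of 2.17 at day 0 (95% exact interval 1.18 to 4.13) and 4.73 at day 8 (1.44 to 24.5). For Arf-C the ratios were 1.69 (0.881 to 3.31) and 3.12 (0.843 to 17.3), and day 8 against day 0 in Ctrlv2 gave 0.395 (0.0743 to 1.37). These intervals cover counting error only and say nothing of the spread between libraries, and no test of the lines was made for this gene.

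Krt8, the type II chain of the first embryonic epithelia, was higher in Ctrlv2 than in either Arf line on both days. Ctrlv2 held 11.6, 9.70 and 13.4 FPKM at day 0 and 149.6, 170.2 and 175 at day 8. Arf-B held 4.77, 4.88 and 4.97 and 63.5, 62.8 and 43.6, and Arf-C 4.65, 4.08 and 4.66 and 68.0, 48.9 and 42.2. No library of an Arf line reached the lowest Ctrlv2 library of its day. The rise over 8 days was nevertheless large in all lines, at 3.73 (SE 0.16), 3.27 and 3.28 on the log2 scale for Ctrlv2, Arf-B and Arf-C.

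Krt18, the type I partner of Krt8, went from the second of the 4 keratin members at day 0 to the first at day 8 in every line. Krt42, a keratin outside the members, had a higher mean than Krt18 at day 0 in every line. In Ctrlv2 it rose from 5.55, 4.61 and 6.84 FPKM to 210.2, 252 and 251 FPKM. In Arf-B it rose from 3.17, 2.54 and 2.96 to 118, 112 and 95.7, and in Arf-C from 1.83, 3.49 and 2.87 to 123, 104 and 75.8. The Arf libraries of a day overlap each other and are all below those of Ctrlv2. The log2 rises were 5.17 (SE 0.18), 4.81 and 4.77 with the pseudocount of 1, and the ratios of mean FPKM without it were 42.0, 37.6 and 37.0.

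Krt19 was nearly silent in the Arf lines at day 0, and at day 8 its mean was 0.651 (Arf-B) and 0.743 (Arf-C) of that in Ctrlv2. Ctrlv2 held 3.43, 2.95 and 3.34 FPKM at day 0, while Arf-B held 0.119, 0.319 and 0.517 and Arf-C 0.266, 0.296 and 0.278. At day 8 Ctrlv2 held 67.2, 62.1 and 67.8, Arf-B 48.0, 44.1 and 36.1 and Arf-C 64.0, 46.3 and 36.1. At day 0 the Arf means are 0.0983 and 0.0865 of the Ctrlv2 mean, and at day 8 the highest Arf-C library lies within the range of Ctrlv2. Log2 rises were 3.98 (SE 0.16) in Ctrlv2, 5.05 for Arf-B and 5.24 for Arf-C.

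Of the 4 keratin members Krt7 had the lowest FPKM, a value that divides its reads by a deposited gene length of 7049 bases. At day 0 it had 13, 19 and 13 reads in the Ctrlv2 libraries, 5, 2 and 1 for Arf-B, and 0, 0 and 1 for Arf-C. At day 8 it reached 3.49, 3.03 and 2.80 FPKM in Ctrlv2, 3.45, 3.34 and 2.49 for Arf-B and 3.47, 2.79 and 1.99 for Arf-C, with all 3 groups overlapping. Log2 rises were 1.93 (SE 0.12), 2.01 and 1.88. On reads per library size the rise was 42.6-fold in Ctrlv2 (95% exact interval 31.6 to 58.9) and 224-fold in Arf-B (113 to 519), and in Arf-C, from 1 read, the ratio was 1530 with an interval of 274 to 60485, again for counting error only. Because of the pseudocount, log2 rises of Krt7 were 4.20, 4.81 and 4.77 when 0.1 was added in place of 1.

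**Figure D2:**
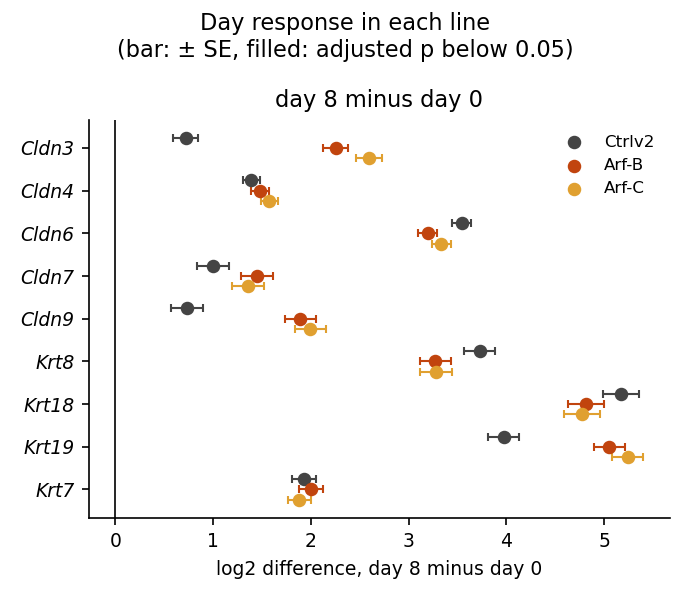
Log2 change from day 0 to day 8 of the 9 tested members in each line, with bars for the standard error and filled points for called changes, on the log2(FPKM + 1) scale. All values are above 0, Krt18 has the largest in Ctrlv2 (5.17), Krt19 the largest in Arf-B (5.05) and Arf-C (5.24), and the lines are widest apart for Cldn3, Cldn9 and Krt19.

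Against all genes, the day response reads as follows. In Ctrlv2 9 of 9 tested members were called higher, where 33.9% of all tested genes were called higher and 34.4% lower. In Arf-B the count was also 9 of 9 (background 32.9% higher and 33.8% lower), and in Arf-C 9 of 9 (32.8% higher and 33.8% lower). The median log2 change of the tested members was 1.93, 2.25 and 2.60 in Ctrlv2, Arf-B and Arf-C, with medians of all tested genes between -0.02 and -0.01. For the 4 keratins the medians were 3.85, 4.04 and 4.03, and for the 5 tested claudins 1.00, 1.89 and 2.00. Scaling every library to the same sum of reads moved the median of all genes up by 0.12 log2 units in Arf-B and in Arf-C, less than the 1.36 of the smallest member rise in those lines. Under that scaling 59.8% of the Arf-B calls were higher, against 49.4% as deposited.

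At day 0 4 claudins were higher and 3 keratins lower in each Arf line than in Ctrlv2. Both comparisons use the same 3 Ctrlv2 libraries, so their values are set side by side. Cldn6 was higher by 1.27 (SE 0.10, adjusted p = 8.05e-08) in Arf-B and 1.06 (adjusted p = 4.85e-07) in Arf-C on the log2 scale. Cldn3 was higher by 1.21 and 0.92, Cldn7 by 1.21 and 1.11, and Cldn4, already abundant, by 0.67 and 0.60. Cldn9 was not called, at 0.08 (adjusted p = 0.754) and -0.03 (adjusted p = 0.896).

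Among the 4 keratin members at day 0 Krt19 differed most on the log2(FPKM + 1) scale, at -1.69 (SE 0.16, adjusted p = 6.44e-07) in Arf-B and -1.73 (adjusted p = 4.79e-07) in Arf-C. Its Arf levels lie below the pseudocount, and with 0.1 in place of 1 the differences were -3.12 and -3.13. Krt8 stood at -1.09 and -1.19, and Krt18 at -0.77 (adjusted p = 0.00364) and -0.85 (adjusted p = 0.00152). These values put both partners of the pair lower in the Arf lines, with no library overlapping. Krt7 was not called, at -0.09 (adjusted p = 0.637) and -0.10 (adjusted p = 0.549), although its libraries are apart and its reads per library size had ratios of 0.188 in Arf-B (95% exact interval 0.0763 to 0.402) and 0.0245 in Arf-C (0.000607 to 0.144), the latter below the Krt19 ratio of mean FPKM (0.0865). It was called lower with a pseudocount of 0.1 (log2 -0.63, adjusted p = 0.0279, and -0.78, adjusted p = 0.00793) and with limma voom on reads (-2.32, adjusted p = 0.0221, and -4.25, adjusted p = 0.00159). The counts were 4 of 9 tested members higher and 3 lower in Arf-B, where 19.1% of all tested genes were called higher and 20% lower, and 4 and 3 in Arf-C, where 21.2% were called higher and 21.5% lower.

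At day 8 all 5 tested claudins were higher and 3 of the 4 keratins lower in each Arf line. Cldn3 had the largest difference of any member, 2.74 (SE 0.13, adjusted p = 5.57e-10) in Arf-B and 2.80 (adjusted p = 4.37e-10) in Arf-C on the log2(FPKM + 1) scale. Its ratios of mean FPKM, with no pseudocount, were 8.64 and 8.98. Cldn7 followed with 1.65 and 1.46, Cldn9 with 1.24 and 1.23, Cldn6 with 0.92 and 0.85, and Cldn4 with 0.76 and 0.79. The most abundant claudins thus differed least on this scale, and the libraries of every claudin just named were apart.

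Krt8 was the keratin furthest below Ctrlv2 at day 8, at -1.54 (SE 0.16, adjusted p = 3.39e-06) in Arf-B and -1.64 (adjusted p = 1.72e-06) in Arf-C, with ratios of mean FPKM of 0.343 and 0.322. Its partner Krt18 stood at -1.12 (adjusted p = 0.000225) and -1.25 (adjusted p = 8.84e-05). Krt19 was lower by the test in Arf-B, at -0.62 (SE 0.16, adjusted p = 0.00703), a call lost with a pseudocount of 0.1 (adjusted p = 0.0945). In Arf-C it was at -0.46 (adjusted p = 0.0358) with overlapping libraries. That Arf-C call was lost under several settings, among them no filter (adjusted p = 0.0743), the 2 groups fitted alone (0.124), a pseudocount of 0.1 (0.213) and the same sum of reads (0.0628). It was also lost without Ctrlv2 replicate 1, 2 or 3 (0.0828, 0.0549 and 0.0903) and without Arf-C replicate 2 (0.0902) or 3 (log2 -0.27, adjusted p = 0.187). Krt7, the other type II chain, was not called, at -0.01 (adjusted p = 0.967) and -0.15 (adjusted p = 0.391). In all, 5 of 9 tested members were higher and 3 lower in Arf-B, where 16.3% of all tested genes were called higher and 16.9% lower, and the same numbers held for Arf-C, where 16.8% were called higher and 16.8% lower. Of the called genes 49.0% were higher in Arf-B and 50% in Arf-C, which became 63.3% and 61.6% with libraries scaled to the same sum of reads.

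**Figure D3:**
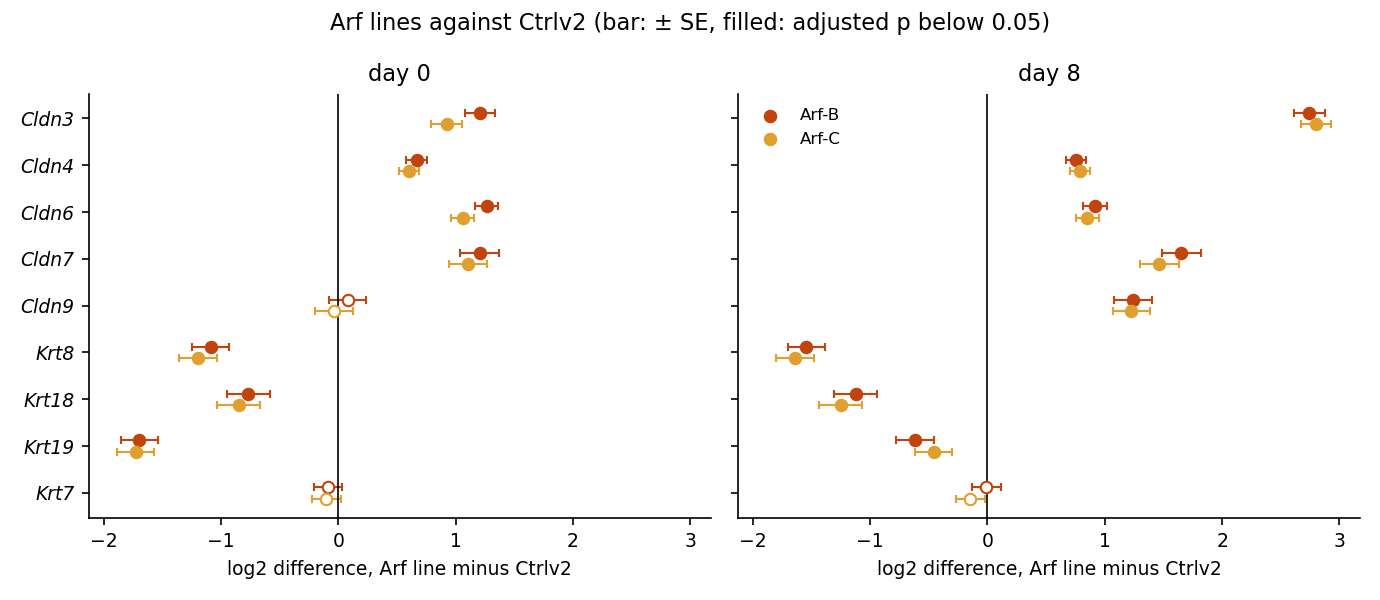
Log2 difference of Arf-B and Arf-C from Ctrlv2 at day 0 and at day 8 for the 9 tested members, with bars for the standard error and filled points for called differences. Claudins lie above 0 except Cldn9 at day 0, which is near 0, while Krt8, Krt18 and Krt19 lie below 0 at both days and Krt7 is close to 0.

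The day response itself is the log2 change from day 0 to day 8. It was larger in the Arf lines than in Ctrlv2 for Cldn3, Cldn9 and Krt19. For the other 6 tested members it was not called different. For Cldn3 the excess was 1.53 (SE 0.18, adjusted p = 1.49e-05) in Arf-B and 1.88 (adjusted p = 1.82e-06) in Arf-C, on the log2 scale. For Cldn9 it was 1.16 (adjusted p = 0.00108) and 1.26 (adjusted p = 0.000461), and for Krt19 1.08 (adjusted p = 0.00174) and 1.27 (adjusted p = 0.000417). Krt19 therefore had a lower start and a larger rise on the log2 scale, but not in FPKM. Its means went from 3.24 to 65.7 FPKM in Ctrlv2, from 0.319 to 42.7 in Arf-B and from 0.280 to 48.8 in Arf-C. The larger fold of Krt19 comes with that near-silent start. With a pseudocount of 0.1 its excess was 2.49 and 2.67, and that of Cldn9 in Arf-C was 1.94.

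The other 6 tested members had no called difference in day response, Cldn6 and Krt18 with their large rises among them. Cldn6 stood at -0.35 in Arf-B (adjusted p = 0.0659) and -0.21 in Arf-C (adjusted p = 0.261). In Arf-B it was called with a pseudocount of 0.1 (adjusted p = 0.0242), with limma voom on reads (0.0284), without Ctrlv2 day 8 replicate 1 (0.0318) and without Arf-B day 0 replicate 3 (0.0387). Krt8 stood at -0.45 and -0.45 (adjusted p = 0.143 and 0.137), the latter called without Arf-C day 8 replicate 1 (log2 -0.64, adjusted p = 0.0207). Krt18 was at -0.36 and -0.40, Cldn7 at 0.45 and 0.36, Cldn4 at 0.09 and 0.18, and Krt7 at 0.08 and -0.04. Limma voom on reads, which adds no pseudocount of 1 FPKM, called a larger rise of Krt7 in Arf-B (2.29, adjusted p = 0.0361) and in Arf-C (4.04, adjusted p = 0.00423). The count was 3 of 9 larger and 0 smaller in Arf-B (17.5% of all tested genes larger, 16.1% smaller) and 3 and 0 in Arf-C (19.4% larger, 18.9% smaller). Of all calls for Arf-B 52.1% were larger, and 63.0% with libraries scaled to the same sum of reads.

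No member was called between Arf-B and Arf-C on either day. At day 0 the log2 differences were 0.28 for Cldn3 (adjusted p = 0.434), 0.20 for Cldn6, 0.12 for Cldn9, 0.11 for Krt8, 0.10 for Cldn7, 0.08 for Krt18, 0.07 for Cldn4, 0.03 for Krt19 and 0.02 for Krt7. At day 8 they were 0.19 for Cldn7, 0.14 for Krt7, 0.13 for Krt18, 0.10 for Krt8, 0.06 for Cldn6, 0.01 for Cldn9, -0.03 for Cldn4, -0.06 for Cldn3 and -0.16 for Krt19. Standard errors ran from 0.09 to 0.18. At day 0 the libraries of both lines did not overlap for Cldn6, Krt8 and Krt7, all with the higher values in Arf-B. How many of all tested genes were apart in this comparison was not counted, so this describes these members and shows no line difference. The small difference of Krt7 at day 0 is set by the pseudocount of 1: on reads, 8 against 1, the ratio per library size was 7.65 (95% exact interval 1.03 to 340, counting error only). The 35 against 26 reads of Cldn5 at day 0 and the 24 against 12 at day 8 were not tested. By limma 0 of 9 were called at day 0, where 0.105% of all tested genes were called higher and 0.238% lower, and 1 of the 9, Cldn3, had an unadjusted p below 0.05. At day 8 0 were called, 0 had such an unadjusted p, and 0.0349% of all tested genes were called higher and 0.0233% lower. Limma voom on reads called 0 at either day, with 0 unadjusted. A p above the threshold does not show that the lines are alike.

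Summed over the members of each family, every Arf library had more claudin RNA and less keratin RNA than every Ctrlv2 library of its day. The 6 claudins summed to 55.3 ± 5.94 FPKM at day 0 and 213 ± 14.3 at day 8 in Ctrlv2 (SD, n = 3). The sums were 99.8 ± 3.40 and 409.7 ± 28.0 for Arf-B, and 92.8 ± 8.27 and 407 ± 41.1 for Arf-C. The 4 keratins summed to 20.6 ± 3.15 and 472 ± 36.1 in Ctrlv2, 8.10 ± 0.350 and 211 ± 29.2 for Arf-B, and 7.48 ± 0.630 and 206 ± 51.5 for Arf-C. Keratins outside these 4 summed to 51.7 to 60.8 FPKM in Ctrlv2 at day 0, more than the 4 themselves, and to 12.8 to 15.6 at day 8. At day 0 they summed to 14.8 to 17.2 FPKM in Arf-B and 11.5 to 16.0 in Arf-C. The keratin over claudin ratio leaves them out and holds for the members alone. It was taken within each library, so no scaling of the library alters it. In Ctrlv2 the ratio was 0.371 ± 0.0338 at day 0 and 2.22 ± 0.103 at day 8. It was 0.0813 ± 0.00630 and 0.514 ± 0.0471 for Arf-B, and 0.0807 ± 0.00373 and 0.501 ± 0.0779 for Arf-C. At day 8 the ratio ranged from 2.15 to 2.34 over the Ctrlv2 libraries, from 0.468 to 0.563 in Arf-B and from 0.431 to 0.585 in Arf-C.

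**Figure D4:**
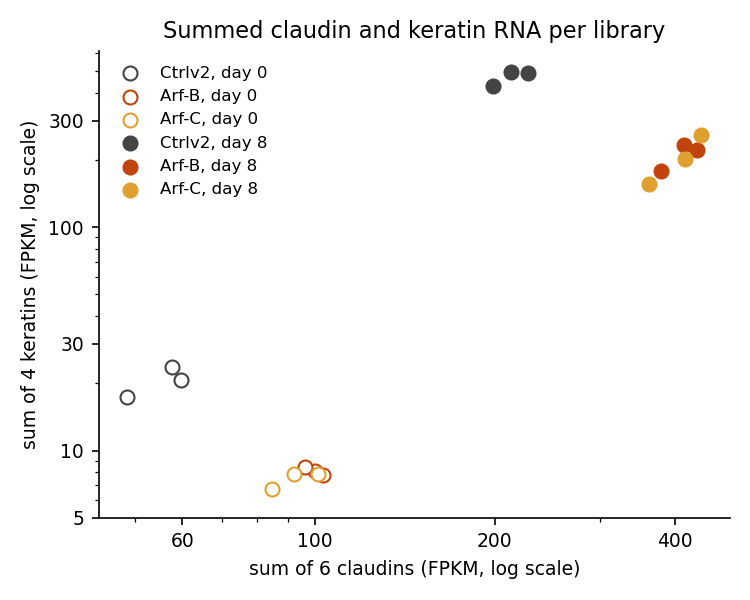
Summed FPKM of the 4 keratins against summed FPKM of the 6 claudins, both on log axes, 1 point per library, open at day 0 and filled at day 8. The Ctrlv2 libraries at day 8 lie where these keratins exceed these claudins (ratio 2.15 to 2.34). All other libraries lie where these claudins exceed these keratins.

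Shares were taken of the summed FPKM of the 6 claudins or of the 4 keratins, with other genes of both families left out. In all 3 lines the mean shares of Cldn4, Cldn5, Cldn7 and Krt8 were lower at day 8 than at day 0. Those of Cldn6, Krt18 and Krt7 were higher. For Krt7 the Ctrlv2 libraries of both days overlapped, at 0.242% to 0.616% at day 0 and 0.564% to 0.810% at day 8. Its day 0 shares there rest on 13 to 19 reads per library. Cldn4 made up 81.6% of claudin RNA in Ctrlv2 at day 0 and 56.3% at day 8, with 49.5% for Arf-B and 51.1% for Arf-C at day 8. Cldn6 went from 11.4% to 39.4% in Ctrlv2, and was at 38.8% and 37.5% in the Arf lines at day 8. Cldn3, Cldn9 and Krt19 had mean shares that were lower at day 8 in Ctrlv2 and higher at day 8 in the Arf lines. In Ctrlv2 the libraries of both days overlapped for Cldn9, at 0.676% to 0.736% at day 0 and 0.453% to 0.720% at day 8. They also overlapped for Krt19, at 14.1% to 17.0% and 12.7% to 15.6%. Cldn9 had 13 to 19 reads per Ctrlv2 library at day 0 and 20 to 28 at day 8. The mean share of Cldn3 went from 2.47% to 1.35% in Ctrlv2, from 4.46% to 6.09% in Arf-B and from 3.75% to 6.43% in Arf-C. That of Cldn9 went from 0.706% to 0.621% in Ctrlv2, from 0.472% to 1.09% in Arf-B and from 0.398% to 1.09% in Arf-C. Krt19, as a share of the 4 keratins, went from 15.9% to 14.0% in Ctrlv2, from 3.90% to 20.2% in Arf-B and from 3.76% to 23.6% in Arf-C.

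Between the keratin partners the balance turned from Krt8 to Krt18. The ratio of Krt18 to Krt8 in FPKM was 0.487 ± 0.0194 at day 0 and 1.44 ± 0.0387 at day 8 in Ctrlv2, 0.593 ± 0.0724 and 1.95 ± 0.218 for Arf-B, and 0.622 ± 0.230 and 1.91 ± 0.184 for Arf-C. At day 8 every Arf library was above every Ctrlv2 library in this ratio (1.79 or more against 1.48 or less). The other type I chain, Krt19, per Krt8, stood at 0.401 ± 0.0436 in Ctrlv2, 0.762 ± 0.0630 for Arf-B and 0.914 ± 0.0512 for Arf-C at day 8, and at 0.283 ± 0.0295, 0.0648 ± 0.0395 and 0.0632 ± 0.00817 at day 0. Krt19 was thus the lower-ratio gene in the Arf lines at day 0 and the higher-ratio gene at day 8, again with no overlap. Krt8 made up 94.6% to 98.4% of the type II FPKM counted here (Krt8 plus Krt7) at day 8. That share rests on the deposited gene lengths, 7049 bases for Krt7 and 1958 for Krt8: in reads, the Arf-B libraries at day 8 held 589, 438 and 397 of Krt7 beside 3013, 2286 and 1930 of Krt8.

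**Figure D5:**
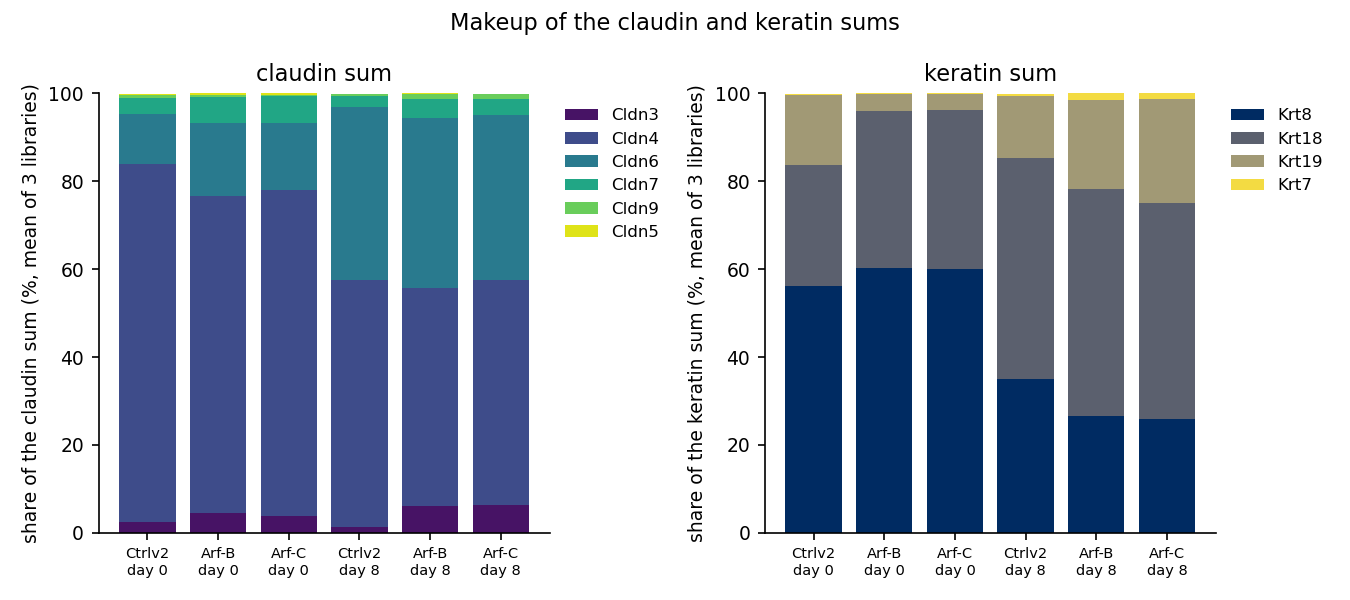
Share of each claudin in the summed FPKM of the 6 claudins, and of each keratin in that of the 4 keratins, in percent, as means of the 3 libraries of each group. Cldn4 falls from 81.6% at day 0 to 56.3% at day 8 in Ctrlv2, and Krt18 is the largest keratin share in all groups at day 8.

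Several members lie side by side in the genome (mm10, from the deposited table). Cldn4 (5:134945119-134946934, minus strand) and Cldn3 (5:134986214-134987472, plus strand) are 39.3 kb apart with no other tested gene between them, and the gene below Cldn4, Mettl27, was also higher in Arf-B at day 0 (0.66) and day 8 (0.54) and in Arf-C (0.63 and 0.39). On the far side of Cldn3 lies the scarce pseudogene Rps29-ps, at means of at most 0.56 FPKM. Cldn6 (17:23679249-23682446, plus) and Cldn9 (17:23682584-23684026, minus) face each other with 138 bases between their ends. The sources used here do not say whether the authors' counting used strand. Tnfrsf12a, 1.8 kb below Cldn6, moved the other way at day 8 (-1.16 in Arf-B and -1.24 in Arf-C), and Pkmyt1, 42.3 kb above Cldn9, stood at -0.25 and -0.06. Krt8 (15:101996698-102004482, minus) and Krt18 (15:102028180-102032027, plus) are 23.7 kb apart, and Krt7 (15:101411043-101430313, plus) lies on the same chromosome. The nearest tested genes outside these 3 keratins are Atg101, 120.1 kb below Krt7, which was lower at day 0 (-0.53 and -0.41), and Eif4b, 41.7 kb above Krt18, which was lower at day 8 (-0.29 and -0.30). Cldn7 (11:69964779-69967885, plus) has Elp5 337 bases above it, which was lower in Arf-B (-0.27 and -0.33 at day 0 and day 8) where Cldn7 was higher, and Slc2a4, 16.6 kb below it, was lower at day 8 (-0.78 and -0.62). Krt19 (11:100140810-100148665, minus) has Krt15, a keratin of basal cells, 4.9 kb below it. Krt15 went from 0.00646 to 4.31 FPKM in Ctrlv2 and was not called between the lines at day 8 (-0.31 and 0.05). On its other side Krt17 is the nearest tested gene, 107.6 kb above. Cldn5 is at 16:18776847-18778262 (plus), with Cdc45 2.2 kb above, lower at day 8 (-0.24 and -0.20), and Sept5 146.9 kb below, not called (0.23 and 0.21). Krt8-ps, a copy of Krt8 on chromosome 7, held at most 0.502 FPKM in any library. How reads that match several copies were counted is not given.

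Other genes of both families were mostly silent. The filter was passed by 4 of 19 other claudin genes and by 6 of 50 other keratin genes. Cldn12 was the most abundant other claudin, at 14.2 ± 1.35 FPKM in Ctrlv2 at day 0 and 17.5 ± 1.09 at day 8 (SD, n = 3). Unlike the claudins above it was lower in the Arf lines at day 0 (-0.21, adjusted p = 0.021, and -0.20, adjusted p = 0.028) and not called at day 8. Cldn20 reached at most a mean of 1.04 FPKM and Cldn19 0.631. Among keratins the type I genes Krt42 and Krt17 behaved unlike Krt18: they were present in Ctrlv2 at day 0 (33.9 and 17.3 FPKM) and low at day 8 (0.153 and 1.03 FPKM). At day 0 both were lower in the Arf lines, Krt42 by -1.71 and -2.03 and Krt17 by -2.25 and -2.36 in log2. Krt20, an intestinal keratin, was listed at 0 in all Ctrlv2 libraries at day 0, was at 5.51 ± 0.723 FPKM there at day 8, and was lower in the Arf lines at day 8 (-0.30 and -0.54).

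Partner genes of the tight junction and of adhesion were set beside the members. The counts between lines in this and the next paragraphs stand beside the shares of all tested genes called in the same comparisons. At day 0 these shares were 19.1% higher and 20% lower for Arf-B, with 21.2% and 21.5% for Arf-C. At day 8 they were 16.3% and 16.9% for Arf-B, with 16.8% and 16.8% for Arf-C. Of 17 other tight junction genes 4 were called higher and 5 lower in each Arf line at day 0, near those shares. At day 8 11 were higher and 1 lower for Arf-B and 11 and 2 for Arf-C (median log2 0.41 and 0.38, all tested genes 0.01). F11r, the junction adhesion molecule A, was at 80.0 ± 3.41 FPKM in Ctrlv2, 126 ± 12.1 for Arf-B and 121 ± 10.7 for Arf-C at day 8 (log2 0.64 and 0.59). Jam2, another junction adhesion molecule, was at 83.8 FPKM in Ctrlv2 at day 0 and at 0.468 at day 8, and was higher in the Arf lines at day 8 (2.40 and 2.23). Prkci, the kinase of the polarity complex, was not called in Arf-B at day 8 (-0.13) and was lower in Arf-C (-0.23). Of 17 epithelial adhesion genes 14 were higher and 0 lower at day 8 in each Arf line, against 6 higher and 6 lower for Arf-B and 3 and 7 for Arf-C at day 0. Epcam, which binds Cldn7, was at 23.1 ± 2.49 FPKM in Ctrlv2, 91.0 ± 4.88 for Arf-B and 86.9 ± 4.39 for Arf-C at day 8, and Cdh1, the adhesion protein of epithelial junctions, at 45.4 ± 1.51, 100.3 ± 3.81 and 95.6 ± 8.09. Spint2, an inhibitor of membrane proteases, was higher as well (0.77 and 0.84). At day 8 the claudins and these adhesion genes were thus higher in the same Arf libraries in which Krt8 and Krt18 were lower. The tested claudins rose from day 0 in every line, but not all adhesion genes did. Mean Epcam at day 0 was 81.3, 95.05 and 78.1 FPKM (Ctrlv2, Arf-B, Arf-C), and mean Cdh1 79.5, 91.2 and 78.8. Both fell in Ctrlv2, while mean Spint2 fell in all lines. Over days, 9 of the 17 adhesion genes were called lower and 5 higher for Ctrlv2. These counts were 3 and 9 for Arf-B, 3 and 12 for Arf-C. Over the same days 34.4% of all tested genes were called lower and 33.9% higher for Ctrlv2. Those shares were 33.8% and 32.9% for Arf-B, 33.8% and 32.8% for Arf-C.

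Of 9 other intermediate filament and linker genes 2 were higher and 5 lower at day 0 and 4 higher and 4 lower at day 8 in each Arf line. Vim, the filament protein of mesenchymal cells, was higher at day 0 (0.91 and 0.97) and lower at day 8 (-0.54 and -0.60). Lmna, a filament protein of the nucleus, was lower at day 0 (-2.20 and -2.22), as Krt8 was, and lower at day 8 (-0.39 and -0.43). Lmnb1, another lamin of the nucleus, was higher at day 8 (0.55 and 0.50). Of 13 tested epithelial transcription factors 4 were higher and 3 lower in each line at day 0, and 8 in Arf-B and 9 in Arf-C were higher with 0 lower at day 8. Elf3 and Klf4 were higher at day 8 (1.51 and 1.47, 0.73 and 0.85), and Klf5 was lower at day 0 (-1.03 and -1.0). Of the 9 keratins of stratified epithelium 4 were tested, with 2 lower in each line at day 0 and 1, Krt10, higher in each at day 8 (0.48 and 0.46), beside 1 lower in Arf-C, Krt17 (-0.49).

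Markers of extraembryonic endoderm and of pluripotent cells differed between the Arf lines and Ctrlv2 at day 8, as the members did. Of 12 tested markers of extraembryonic endoderm, an early embryonic epithelium in which Krt8 and Krt18 are in use, 10 were lower in each Arf line (median log2 -1.02 and -1.01), among them the matrix genes Lama1 (-3.66 and -3.63), Col4a1 (-2.40 and -2.14) and Sparc (-2.05 and -2.06). Their sum over 14 genes was 388 to 505 FPKM in Ctrlv2, 118 to 121 in Arf-B and 122 to 131 in Arf-C at day 8, and at day 0 it was 130.4 to 150.1, 49.2 to 58.2 and 50.5 to 56.0 FPKM. Afp and Ttr were at 0 in all libraries at day 0. Of the 8 markers of pluripotent cells 8 were higher for Arf-B and 7 for Arf-C at day 8, Dppa5a by 3.00 and 2.92, Pou5f1 by 2.47 and 1.99 and Zfp42 by 1.53 and 1.67. Their sum was then 107 to 136 FPKM in Ctrlv2, 655 to 894 in Arf-B and 543 to 921 in Arf-C. Replicate 3 of each Arf line at day 8 had the highest pluripotent sum of its group (894 and 921 FPKM) and the lowest Krt8, Krt18, Krt19 and Krt7, and also the lowest claudin sum (379.8 and 361.9 FPKM), with the lowest Cldn3, Cldn4, Cldn6 and Cldn7. Its keratin over claudin ratio was the lowest of its group as well. The part of these cell types in the claudin and keratin differences was not tested.

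The other marker lists at day 8 were as follows. Of 7 tested trophoblast markers 2 were higher in each Arf line, and their sum over 10 genes was 13.4 to 15.3 FPKM in Ctrlv2, 13.6 to 17.3 in Arf-B and 13.5 to 16.5 in Arf-C, with Tpbpa at 0; Tfap2c, Gata3 and Ascl2, the most abundant, were not called. Of 7 tested markers of definitive endoderm and foregut 1 was higher and 2 lower for Arf-B, and 2 and 2 for Arf-C, with sums over 11 genes of 14.6 to 17.6, 20.5 to 22.8 and 21.8 to 24.6 FPKM in Ctrlv2, Arf-B and Arf-C. Foxa1 was higher (1.33 and 1.37), Foxa2 was higher in Arf-C alone (0.45, against 0.11 in Arf-B) and Prox1 was lower (-0.75 and -0.72). Of 7 tested endothelial markers, whose cells use Cldn5, 1 was higher and 4 lower in each line (Pecam1 by 0.88 and 1.03, Tek by -0.40 and -0.30, Flt1 by -0.73 and -0.72), with sums over 9 genes of 7.62 to 9.32, 4.35 to 5.67 and 4.30 to 7.55 FPKM and Emcn at 0 in Ctrlv2 and Arf-B. Of 10 tested mesenchymal markers 1 was higher in each line and 5 were lower in Arf-B and 6 in Arf-C (Fn1 by 0.79 and 0.69, Acta2 by -2.65 and -2.81), with sums over 12 genes of 105 to 135, 103 to 121 and 89.8 to 111 FPKM. Of 5 tested neural markers 2 were higher and 3 lower in each line (Pax6 by 0.97 and 0.73, Nes by -0.57 and -0.63, Tubb3 by -0.64 and -0.76), with sums over 7 genes of 21.1 to 23.0, 16.1 to 16.8 and 14.6 to 15.6 FPKM. Their part in the results above was not tested either.

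At day 0, of the same lists, the pluripotent markers counted 1 higher and 0 lower of 8 for Arf-B and 1 and 1 for Arf-C. Extraembryonic endoderm markers counted 0 higher and 4 lower for Arf-B and 0 and 5 for Arf-C. Mesenchymal markers counted 4 higher and 2 lower for Arf-B and 5 and 1 for Arf-C, with sums of 118 to 141 FPKM in Ctrlv2, 192 to 233 for Arf-B and 197 to 266 for Arf-C. Of 7 tested trophoblast markers 1 was higher and 1 lower for Arf-B and 1 and 0 for Arf-C, and their sum over 10 genes was 4.20 to 5.62 FPKM in Ctrlv2, 11.9 to 16.4 for Arf-B and 15.9 to 16.1 for Arf-C. The higher gene was Tfap2c, at a mean of 1.95, 11.9 and 12.9 FPKM (2.11 and 2.24 in log2). Endothelial markers counted 0 higher and 3 lower of 7 in each line, with sums of 31.4 to 37.8, 33.9 to 39.6 and 36.4 to 40.3 FPKM. Definitive endoderm and foregut markers counted 0 and 0 of 7 in each line, and neural markers 0 higher and 1 lower of 5. The lower Krt8 and Krt18 of the Arf lines at day 0 thus came with a lower extraembryonic endoderm sum and with higher trophoblast and mesenchymal sums. Single genes carry much of these sums: Tfap2c the trophoblast sum, and Fn1 (95.6, 163 and 179 FPKM in Ctrlv2, Arf-B and Arf-C) and Vim (20.1, 38.8 and 40.4) the mesenchymal sum. Sparc (88.1, 26.8 and 24.8) and Lama1 (36.8, 13.7 and 16.6) make up most of the extraembryonic endoderm sum. The part of these lists in the claudin and keratin differences was not tested.

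The genes with the most similar pattern to each member were sought over the 6 group means of log2(FPKM + 1), centred on each gene's own mean, among 8617 genes. The measure is the root mean square difference, so 0 is an identical pattern. Nearest to Cldn4 were Adgrb2 (0.095), Prkar2b (0.114) and Zdhhc2 (0.149), and to Cldn7 Epha1 (0.168), Dmrtb1 (0.201) and Derl3 (0.207). For Cldn6 they were Hotairm1 (0.346), Wls (0.356) and Meis2 (0.412). For Cldn3 they were Hist3h2ba (0.461), Gfra3 (0.482) and Dmrtb1 (0.492). Nearest to Krt8 were Col4a2 (0.219), a collagen chain of basement membranes, Cnn2 (0.238) and Cdc42ep1 (0.321). For Krt18 they were Cyr61 (0.184), Hoxb4 (0.384) and Rec8 (0.448), and for Krt19 Ptges (0.496), Cyr61 (0.521) and Gprc5c (0.526). Among the members on this scale, Cldn4 was closest to Cldn9 (0.258) and Cldn7 (0.338), and Cldn3 to Cldn7 (0.508). Krt18 was closer to Krt19 (0.389) than to its partner Krt8 (0.767). The pair most unlike was Cldn5 and Krt18 (2.56). Cldn5, Cldn9, Krt19 and Krt7 had Arf means below 1 FPKM at day 0, where the pseudocount of 1 shrinks changes. Without it, the day 0 ratio of Arf-B to Ctrlv2 was 0.0983 for Krt19, 0.510 for Krt18 and 0.421 for Krt8. The rise in Arf-B was 9.47-fold for Cldn9 and 2.82-fold for Cldn4. Nearness was not computed without the pseudocount, so the order may depend on it.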

How the data were processed

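Polyadenylated RNA from Trizol extracts was sequenced in 18 libraries. The authors deposited FPKM values per gene, with gene lengths and mm10 coordinates. Per the submitters' processing notes, HISAT2, featureCounts and DESeq2 were used, with versions and settings not given in the sources used here. FPKM times gene length, divided by a step fixed within each library, gave whole reads, within 0.001 reads, for all 413772 values above 0. The library size that the step implies was 0.95 to 1.10 times the reads on genes. Groups and replicates came from the sample titles.

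Values were tested as log2(FPKM + 1) in limma 3.58.1 (R 4.3.3, statmod 1.5.0), with 1 coefficient per group over all 18 libraries and empirical Bayes moderation with trend and robust settings. Genes needed 0.5 FPKM in 3 libraries, and Benjamini-Hochberg adjustment ran over all 17200 such genes. The fit was tested on simulated data. Tables and figures used Python 3.11.15, pandas 2.3.3, numpy 2.4.6 and matplotlib 3.10.9. The deposited FPKM are thus not scaled to the sum of reads, and scaling to that sum, another pseudocount, other filters, thinned reads, limma voom and left-out libraries were alternatives. All tested members are named in every comparison, and otherwise the 3 genes of highest group mean per list, the 3 nearest patterns (8617 genes with a group mean of at least 5 FPKM) and the nearest tested genes on each side. Members and lists were chosen with earlier results of these data known. Proteins were not compared here.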

Additional observations from a re-analysis of the deposited data

Results flagged for a closer look

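The change from day 0 to day 8 differed between an Arf line and Ctrlv2, by the test of that difference in limma, for 3 members in both lines. The excess over Ctrlv2 on the log2 scale was 1.53 in Arf-B and 1.88 in Arf-C for Cldn3, 1.16 and 1.26 for Cldn9, and 1.08 and 1.27 for Krt19. Each was called under every alternative run, with the adjusted p of Cldn9 in Arf-B between 0.000485 and 0.0461 over them. For Krt19 the difference comes with a day 0 level of 0.119 to 0.517 FPKM in the Arf libraries, near the level of a few reads, and for Cldn9 with day 0 levels of 0.138 to 0.784 FPKM in all lines. Both lines share the Ctrlv2 libraries in these comparisons. Groups of 3 libraries are too small for a check of single outlying libraries.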

How the results depend on the processing

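Of 1488 member values under alternatives, 1435 kept their direction and side of the threshold. With the same sign, 10 were no longer called and 10 became called, and 33 changed sign. In the reported fit 0 of those 33 were called, and 20 of them compare Arf-B with Arf-C. Among the 33, the Krt7 day response of Arf-C was called with limma voom on reads (4.04, adjusted p = 0.00423). In each comparison the count of members called was the same with a replicate block as without it (9, 9, 9, 7, 7, 8, 8, 0, 0, 3 and 3 in the order day 8 against day 0 in Ctrlv2, Arf-B and Arf-C, both Arf lines at day 0, both at day 8, Arf-B against Arf-C at day 0 and day 8, and both day responses), and 0 of 99 member calls changed. Same-numbered libraries share only a number: correlations of their deviations ran from -0.251 to 0.203, with 0 of 15 group pairs above 0.1 in all libraries and 0 in which every library correlated best with its own number.

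Limma voom on reads called 5 members in place of 3 for the day response of Arf-B, the added ones being Cldn6 and Krt7; the cause was not tested. Leaving out 1 library gave 3 to 4 members for either day response and 7 to 8 for Arf-C at day 8, and the reported count in the other comparisons. Genes called between Arf-B and Arf-C at day 0 numbered 59, against 34 with thinned reads, 168 with voom, 10 with these groups alone, 18 without Arf-B replicate 3, 22 without Arf-C replicate 1 and 18 without Arf-C replicate 3. At day 8 they numbered 10, against 26 with no filter and 5 with these groups alone.

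Signs changed as follows. With thinned reads Cldn9 was at -0.036 for Arf-B against Ctrlv2 at day 0 and at -0.052 for Arf-B against Arf-C at day 8. With the same sum of reads Krt7 was at 0.054 for Arf-B at day 8. The Krt7 day response of Arf-C was 0.58 with a pseudocount of 0.1, 0.0033 with the same sum, 0.0034 with thinned reads and 4.04 with voom. Voom put Krt19 at -0.13 (day 0) and Cldn9 at -0.0003 (day 8) between the Arf lines. Leaving out 1 library, Cldn9 in Arf-C at day 0 ran from -0.23 to 0.092, Krt7 at day 8 from -0.073 to 0.101 in Arf-B and from -0.284 to 0.0064 in Arf-C, and the Krt7 day response of Arf-C from -0.182 to 0.109. Between the Arf lines at day 0 the ranges were -0.015 to 0.136 (Cldn4), -0.022 to 0.279 (Cldn7), -0.011 to 0.31 (Cldn9), -0.103 to 0.229 (Krt18) and -0.075 to 0.144 (Krt19). At day 8 they were -0.117 to 0.019 (Cldn3), -0.106 to 0.010 (Cldn4), -0.033 to 0.160 (Cldn6), -0.083 to 0.110 (Cldn9), -0.046 to 0.291 (Krt8), -0.065 to 0.283 (Krt18), -0.352 to 0.053 (Krt19) and -0.016 to 0.275 (Krt7). Depth limits Cldn5 and, at day 0, Krt7 and Cldn9.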
